A study of Mus musculus with 6 samples.

Results

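Tropomyosins, transgelins and calponins are proteins that bind along actin filaments, and Myl9 encodes a regulatory light chain of myosin II, the motor that pulls on those filaments. The 10 genes described here are Tpm1, Tpm2, Tpm3, Tpm4, Tagln, Tagln2, Tagln3, Cnn2, Cnn3 and Myl9, taken by gene name from a table of 54532 genes. They were measured by RNA-seq in 6 libraries of primary neurospheres, free-floating colonies grown from mouse neural progenitor cells. The strain was C57BL/6 throughout and the embryos were of embryonic stage E14.5. The spheres grew for 6 days with EGF and bFGF at 20 ng/ml each. The 3 wild-type libraries carry the numbers WT 3, WT 6 and WT 7. The 3 libraries labelled KO, numbered KO 1, KO 2 and KO 3, came from embryos with a conditional knockout of Ash2l by D6-Cre, a Cre transgene of the developing cortex and hippocampus. The ASH2L protein belongs to the core of the COMPASS complexes, the enzymes that methylate histone H3 at lysine 4. The sources used here do not say whether WT embryos carried the Cre or a floxed allele. The labels differ on the dissected region, giving the dorsal cortex in one field and lateral ventricle walls in another. Nothing in them ties the libraries of a group to different embryos or to different cultures, so p-values reflect only how far these libraries vary, and that variation may be technical.

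Tropomyosins are coiled-coil dimers that lie end to end in the groove of the actin filament and set which other proteins, myosins included, can bind there. Each tropomyosin gene makes several isoforms by alternative promoters and exons. Transgelins and calponins share a calponin homology domain and bind or bundle filaments. In both families 1 gene (Tagln, Cnn1) is a textbook marker of smooth muscle, whereas the others are made in non-muscle cells. Phosphorylation of the regulatory light chain switches myosin II on. Many contractile genes are known targets of serum response factor (SRF), which binds the CArG box.

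Before the levels, the CArG box is shown where it lay beside these genes, since it is the textbook element of smooth muscle contractile genes. RefSeq windows of 300 bases (GRCm38.p6, the assembly behind mm10), from 250 bases before to 50 after a gene's start, were found for 9 of the 10 genes, with 10 windows in all, and not for Tagln. A consensus CArG box, searched on both strands, stood in the windows of 2 genes, Myl9 and Cnn2, and in 1.63% of all 32851 windows. The starts of these RefSeq windows differ from the gene starts of the deposited table, which are used for all gene positions given here. Counted from the table's starts, the box began 117 bases before Myl9 and 40 bases before Cnn2. The stretches that hold it, both on the plus strand, are chr2:156775243-156775372 for Myl9 and chr10:79988484-79988583 for Cnn2, with the box in capitals and both ending before the annotated gene.
Myl9: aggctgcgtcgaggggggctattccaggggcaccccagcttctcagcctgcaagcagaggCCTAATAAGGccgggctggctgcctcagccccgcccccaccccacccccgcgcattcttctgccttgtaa
Cnn2: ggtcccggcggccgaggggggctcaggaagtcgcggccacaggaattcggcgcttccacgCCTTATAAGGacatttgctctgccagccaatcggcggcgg
The MCAT element CATTCC, a TEAD site also known from contractile genes, stood at 2 places in the window of Tagln2, 81 and 119 bases inside the gene as the table gives it, and at 1 place in that of Tpm1, 137 bases inside the gene, against 14.7% of all windows with a match on either strand. The TCF/LEF core CTTTGA, the element of Wnt-responsive genes, stood in 1 of the windows of Tpm3 and in 16% of all windows. None of these matches overlapped another. A match is a description of the letters and says nothing of binding.

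Total counts ran from 16764480 to 21983659 per library. Levels are CPM, counts scaled to a common library size with TMM normalisation, and KO was compared with WT by edgeR's quasi-likelihood test over 16606 genes with Benjamini-Hochberg adjustment at 0.05. The targeted gene, Ash2l, was lower in each KO library than in any WT library, but only from 113 ± 3.55 to 95.9 ± 8.41 CPM (SD, n = 3 each), and the difference missed the threshold (adjusted p = 0.119, edgeR). Which exons were deleted is not given in the sources used here, so a gene count checks the KO label only weakly. WT 3 stood apart from the other WT libraries, at -25.5 on the first principal component of log2 CPM against -81.7 and -85.7, with KO at 53.5 to 76.8. KO 1 stood apart in meningeal and fibroblast markers, whose 14 genes summed to 699 CPM there against 46.8 and 94 CPM in KO 2 and KO 3 and 35.6 to 57 CPM in WT. The neural progenitor markers were present in both groups, the 11 genes summing to 4306 to 5760 CPM in WT and 3959 to 5971 CPM in KO, with 2 higher and 7 lower. Their median log2 fold change was -1.15, with 3 positive and 8 negative. In the fits without WT 6 or without WT 7, 1 was higher and 4 were lower.

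Of the 10 genes, 9 were tested and Tagln fell below the filter on low counts. Among the 9, Tagln2, Tpm4 and Tpm3 were higher in KO, Cnn3 and Myl9 were lower, and Tpm1, Tpm2, Tagln3 and Cnn2 did not pass. The rise of Tagln2 was 6.31-fold and the fall of Myl9 was 3.32-fold. Of all tested genes 29% passed, 13.5% higher and 15.5% lower in KO. WT and KO libraries were fully separated in 6 of the 9 genes, against 48.6% of all tested genes. The median log2 fold change of the 9 was 0.40, and that of all tested genes was 0.00. Each of the 9 had at least 45 reads in every library, so none was tested through 1 group alone. In bulk libraries, fewer cells of a type and less RNA per cell cannot be told apart.

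**Figure D1:**
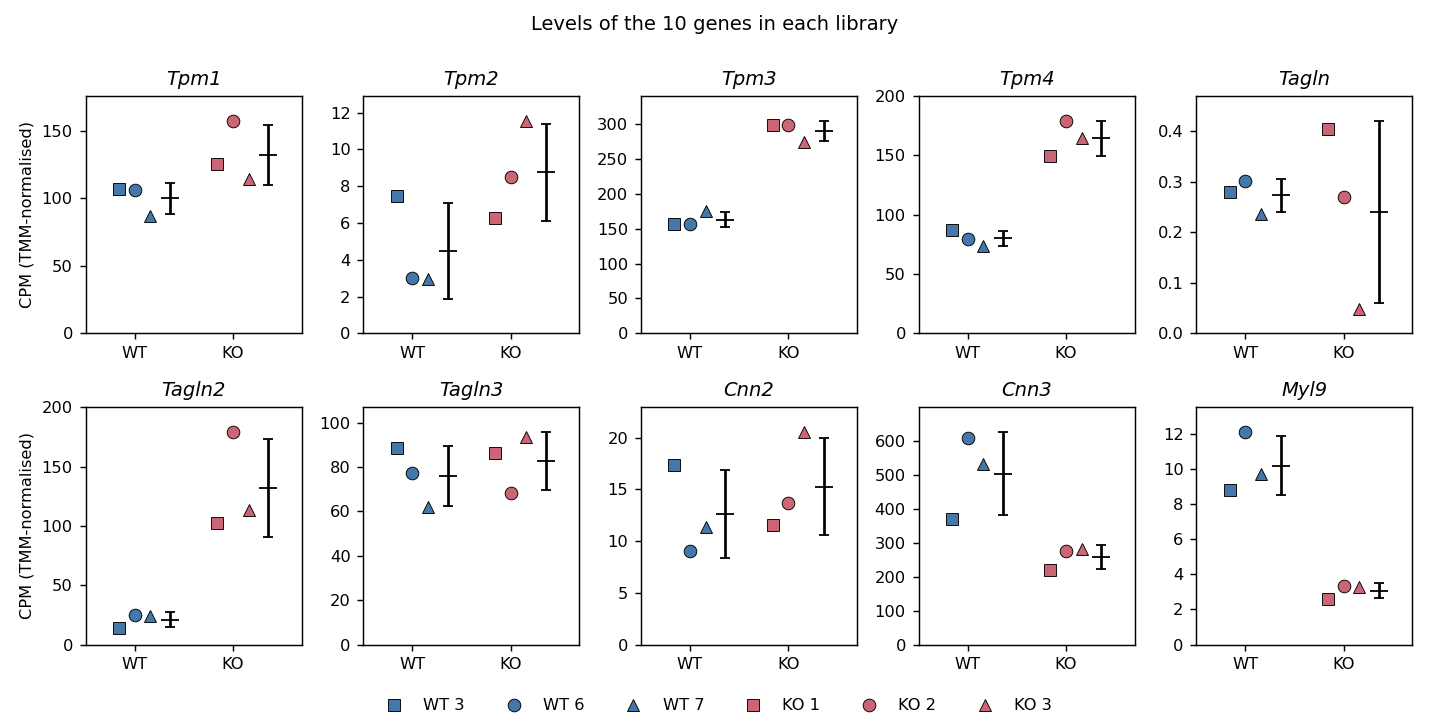
Level of each of the 10 genes in CPM (vertical axis, linear from 0, its own scale in each panel) in the 3 WT and 3 KO libraries (points), with the mean and SD of each group (black bar). Tagln2, Tpm1, Tpm3 and Tpm4 have all KO libraries above all WT libraries, and Cnn3 and Myl9 have all KO libraries below them. Of these genes Tpm1 alone did not pass the threshold.

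Tpm4 (ENSMUSG00000031799, chromosome 8 from 72134975 to 72153142 on mm10, plus strand) is a non-muscle tropomyosin gene of many cell types. Its WT levels were 86.9, 79.1 and 73.8 CPM in WT 3, WT 6 and WT 7. In KO 1, KO 2 and KO 3 it measured 149, 179 and 165 CPM. Each KO library lay above every WT library, by more than the spread of either group. The log2 fold change was 1.04 (SE 0.11), a 2.05-fold rise with a 95% interval of 1.71 to 2.47 (adjusted p = 0.00199, edgeR). The call held whichever library was left out, at log2 fold changes of 0.98 to 1.13.

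Tpm3 (ENSMUSG00000027940, chromosome 3 from 90072649 to 90100902, plus strand) makes slow muscle and widespread cytoskeletal isoforms. It stood at 156, 157 and 175 CPM in the WT libraries in the same order and at 299, 298 and 274 CPM in KO. The groups were tight and far apart, with a log2 fold change of 0.83 (SE 0.10), or 1.78-fold (95% interval 1.51 to 2.11, adjusted p = 0.00273, edgeR). Its retrocopy Tpm3-rs7, on chromosome 14, is nearly identical and held 7.61% to 10.8% as many reads as Tpm3, so reads can be split between them. Tpm3-rs7 moved likewise, from 13.8 ± 1.08 to 27.2 ± 5.17 CPM (SD, n = 3 each; adjusted p = 0.00979, edgeR), and adding the copies to Tpm3 left its log2 fold change at 0.84. In a test against a 1.5-fold change, Tpm3 did not pass (adjusted p = 0.059, edgeR glmTreat).

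Tpm1 (ENSMUSG00000032366, chromosome 9 from 67022590 to 67049406, minus strand), whose products include the main striated muscle tropomyosin and long stress fibre isoforms, did not pass. Its levels were 106, 106 and 86.8 CPM in WT and 125, 157 and 114 CPM in KO. All KO libraries were above all WT libraries, but the KO values spread widely. The log2 fold change was 0.40 (SE 0.15, 95% interval 0.04 to 0.76, adjusted p = 0.0863, edgeR). It passed with limma-voom and sample quality weights (0.45, adjusted p = 0.0316, limma).

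Tpm2 (ENSMUSG00000028464, chromosome 4 from 43514711 to 43523765, minus strand), a tropomyosin of muscle and of fibroblast stress fibres, was scarce, with 7.46, 3.01 and 2.94 CPM in WT and 6.28, 8.48 and 11.5 CPM in KO. WT 3 was the high WT library and lay above KO 1, so the groups overlapped. The log2 fold change was 0.98 (SE 0.44, 95% interval -0.06 to 2.01, adjusted p = 0.132, edgeR). Without WT 3 it stood at 1.56 and passed (adjusted p = 0.0098, edgeR), and it also passed with limma-voom and quality weights (1.38, adjusted p = 0.00616, limma). Leaving out WT 7, KO 3 or WT 6 lowered it to 0.74, 0.74 and 0.75.

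Set side by side per gene length, as deposited FPKM (fragments per kilobase of annotated exons, scaled to library size), the 4 tropomyosins summed to 85.3, 75.9 and 73.7 in WT and 143, 160 and 142 in KO. All KO sums lay above all WT sums. By this measure Tpm4 was the most abundant in every library, with 45.3% ± 1.62 of the sum in WT and 51.2% ± 1.97 in KO (SD, n = 3 each). Tpm3 held 33.6% ± 3.62 and 32.9% ± 2.31, and its groups overlapped. So did those of Tpm2, at 1.31% to 3.05% in WT and 1.56% to 2.81% in KO. Tpm1 went from 19.2% ± 1.66 to 13.9% ± 1.48 (SD, n = 3 each). The groups did not overlap for Tpm4 and Tpm1, for each of which the two-sided exact permutation test gave p = 0.1, the smallest that 3 against 3 can give. For Tpm3 and Tpm2 that exact test gave p = 0.7 and p = 0.6. Adjusted over the 4 shares (Benjamini-Hochberg), these permutation tests gave 0.2 for Tpm4 and Tpm1 and 0.7 for the others. FPKM divides by the length of all annotated exons, and GENCODE M21 lists 16 coding transcripts for Tpm1, 7 for Tpm3, 4 for Tpm2 and 1 for Tpm4. The shares therefore understate genes with many exons that these cells do not use, and gene counts cannot tell which isoforms were made. By raw counts, with no correction for length, Tpm3 led with 47% in WT and 48.9% in KO, and Tpm4 held 23% and 27.6%.

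**Figure D2:**
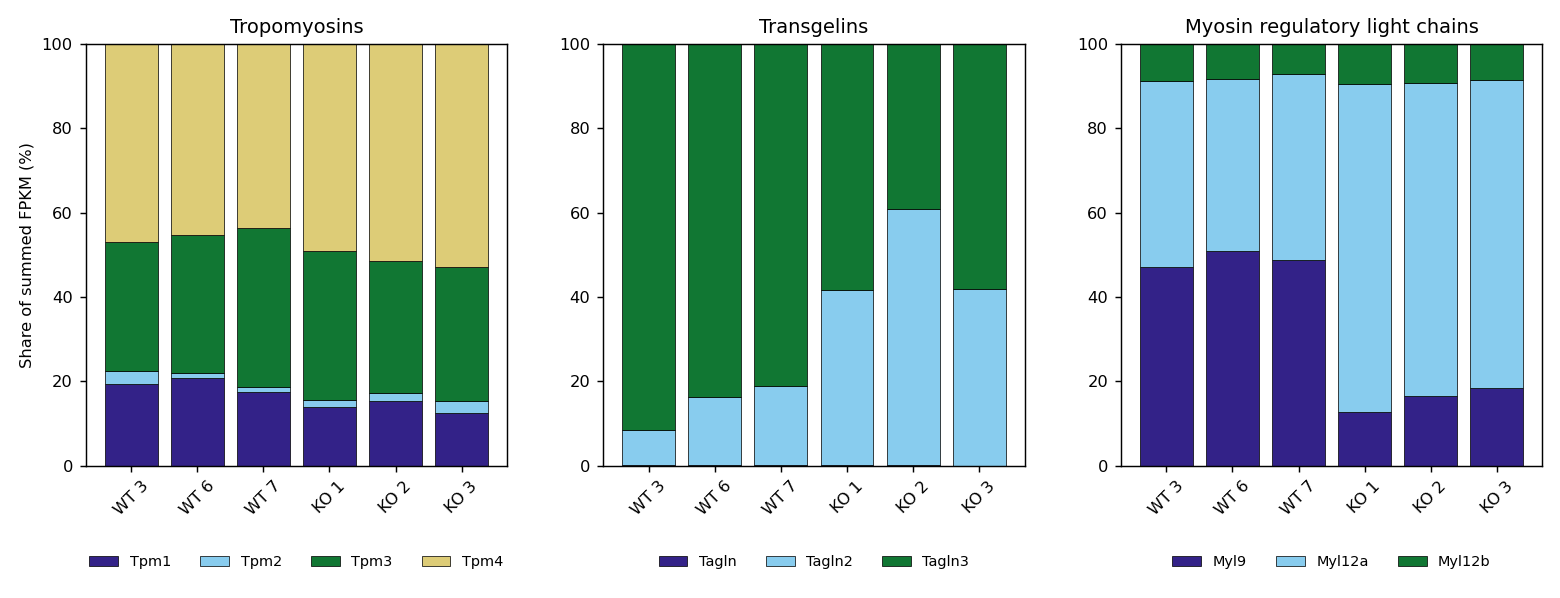
Share of each gene in the summed FPKM of its family (vertical axis, percent) in each library, for tropomyosins, transgelins and the myosin regulatory light chains. Tpm4 takes the largest tropomyosin share in every library, Tagln2 takes 8.39% to 18.7% of transgelins in WT and 41.4% to 60.8% in KO, and Myl9 takes 47.1% to 50.9% of light chains in WT and 12.8% to 18.4% in KO.

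Tagln2 (ENSMUSG00000026547, chromosome 1 from 172500047 to 172507380, plus strand), the transgelin of non-muscle and dividing cells, changed more than any other of the 9. It measured 13.7, 24.9 and 24 CPM in WT and 103, 179 and 113 CPM in KO. The lowest KO library was several times the highest WT library, and WT 3, the WT library nearest to KO on the first principal component, had the least of this gene. The log2 fold change was 2.66 (SE 0.31), with a 95% interval of 3.82 to 10.4 for the 6.31-fold rise (adjusted p = 0.00236, edgeR). It passed whichever library was left out, between 2.38 without KO 2 and 2.84 without KO 1, the library high in meningeal markers.

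Tagln3 (ENSMUSG00000022658, chromosome 16 from 45711230 to 45724608, minus strand), the transgelin of neurons, stood at 88.8, 77.4 and 62.1 CPM in WT and 86.5, 68.5 and 93.5 CPM in KO. The groups overlapped, with a log2 fold change of 0.12 (95% interval -0.29 to 0.53, adjusted p = 0.611, edgeR), and its sign turned without WT 7 (-0.011). The interval reaches from a fold of 0.821 to 1.44, so a rise as large as that of Tpm4 or Tagln2 lies outside it. Among 16 young neuron markers 2 rose and none fell, but 13 rose without WT 3 and none without WT 6, WT 7, KO 1 or KO 2. They summed to 1654 to 3263 CPM in WT, with WT 3 the highest, and 3225 to 4835 CPM in KO.

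Tagln (ENSMUSG00000032085, chromosome 9 from 45929619 to 45936058, minus strand), the smooth muscle transgelin also called SM22, had only 5, 6 and 5 reads in WT and 7, 5 and 1 in KO. These are 0.237 to 0.301 CPM in WT and 0.0473 to 0.403 CPM in KO, where 3 reads correspond to 0.142 to 0.173 CPM. Its span overlaps Pcsk7 on the opposite strand, with 591 to 842 reads, and since the use of strand is not stated, even these few reads can be shared. Without the filter Tagln was tested and did not pass (log2 fold change -0.21, adjusted p = 0.883, edgeR), and no difference was detectable at this depth.

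The make-up of the transgelins was examined after their values were seen and was not tested. In FPKM, Tagln2 held 8.39%, 16% and 18.7% of the family in the WT libraries, in the order of their numbers, and 41.4%, 60.8% and 41.9% in the KO libraries. Tagln3 held nearly all the rest. In KO 2 Tagln2 passed Tagln3 in FPKM, with a ratio of 1.56, against 0.708 in KO 1 and 0.722 in KO 3, whereas in the WT libraries the ratio was 0.0918 to 0.23. By raw counts, with no correction for length, Tagln2 held 13.3%, 24.2% and 27.8% in WT and 54.2%, 72.3% and 54.8% in KO. It then led Tagln3 in every KO library and in no WT library.

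Cnn3 (ENSMUSG00000053931, chromosome 3 from 121426497 to 121458207, plus strand), the acidic calponin of brain and other non-muscle tissue, had the highest FPKM of the 10 genes in both groups. It fell from 369, 607 and 532 CPM in WT to 218, 276 and 282 CPM in KO. The groups did not overlap, and WT 3 was the lowest of the WT libraries. The log2 fold change was -0.96 (SE 0.21), that is 1.94-fold lower (adjusted p = 0.0161, edgeR). The call ended without WT 6, WT 7, KO 1 or KO 2, with adjusted p from 0.0532 to 0.0581 (edgeR), at log2 fold changes of -0.81, -0.92, -0.82 and -1.003 in that order. It was kept without WT 3 (-1.14) and without KO 3 (-1.01). It ended too against a 1.5-fold change (adjusted p = 0.124, edgeR glmTreat). Astrocyte markers moved the same way, 10 of 12 lower in KO, and summed to 7494 CPM in WT 3, 19045 and 21192 CPM in WT 6 and WT 7, and 2275 to 3385 CPM in KO. Oligodendrocyte lineage markers also fell, 9 of 12, of which 2 cleared the filter only through WT, and their sum was 1310 to 2315 CPM in KO against 4584 to 5166 CPM in WT, with WT 3 the highest. The part of either marker list in the fall of Cnn3 was not tested.

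Cnn2 (ENSMUSG00000004665, chromosome 10 from 79988584 to 79996062, plus strand), a calponin of non-muscle and smooth muscle cells and 1 of the 2 genes with a CArG box in its window, did not pass. It stood at 17.4, 9.09 and 11.4 CPM in WT and 11.6, 13.7 and 20.5 CPM in KO. The groups overlapped, with WT 3 and KO 3 high in their groups (log2 fold change 0.28, 95% interval -0.47 to 1.03, adjusted p = 0.524, edgeR). Leaving out single libraries moved it from 0.02 without KO 3 to 0.58 without WT 3, and it passed in none of these fits. Cnn1, the smooth muscle calponin and the third gene of the family, had 0 to 8 reads per library in WT and 4 or 5 in KO. It was below the filter, and did not pass without one (adjusted p = 0.802, edgeR).

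Myl9 (ENSMUSG00000067818, chromosome 2 from 156775420 to 156781658, plus strand), the regulatory light chain best known from smooth muscle and the other gene with a CArG box in its window, fell. It measured 8.81, 12.1 and 9.71 CPM in WT and 2.59, 3.35 and 3.26 CPM in KO. Every KO library lay below every WT library, including WT 3. The log2 fold change was -1.73 (SE 0.24), a level 3.32-fold lower (adjusted p = 0.00381, edgeR), and it passed with each library left out, at -1.83 to -1.60. The part of the astrocyte and oligodendrocyte markers, whose values stand beside Cnn3, in this fall was not tested.

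Myl9 has a pair of close relatives, Myl12a and Myl12b, which make the light chains of non-muscle myosin II and whose near-identical coding sequences can split reads. Myl12a rose from 25.7 ± 2.07 to 42.1 ± 4.16 CPM (SD, n = 3 each; log2 fold change 0.71, SE 0.13, adjusted p = 0.00945, edgeR), opposite in direction to Myl9. Myl12b, singled out after its values were seen, averaged 3.98 ± 0.686 and 4.21 ± 0.494 CPM (WT and KO, SD, n = 3 each) without passing (adjusted p = 0.832, edgeR). The summed FPKM of the 3 genes was 16.3, 19.6 and 16.4 in the WT libraries and 18, 17.7 and 15.4 in the KO libraries, so the groups overlapped in the sum. Within it Myl9 held 49% ± 1.92 in WT and 15.9% ± 2.83 in KO, and Myl12a 43% ± 1.96 and 75% ± 2.43 (SD, n = 3 each). FPKM divides here by 1162 bases for Myl9 and 3360 for Myl12a. By raw counts, with no correction for length, Myl9 held 25.5% in WT and 6.28% in KO, and Myl12a led with 64.6% and 85.2%. The summed raw counts, not scaled to library size, were 652, 892 and 810 in WT and 911, 950 and 937 in KO, without overlap. These shares were examined after the values were seen and were not tested.

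**Figure D3:**
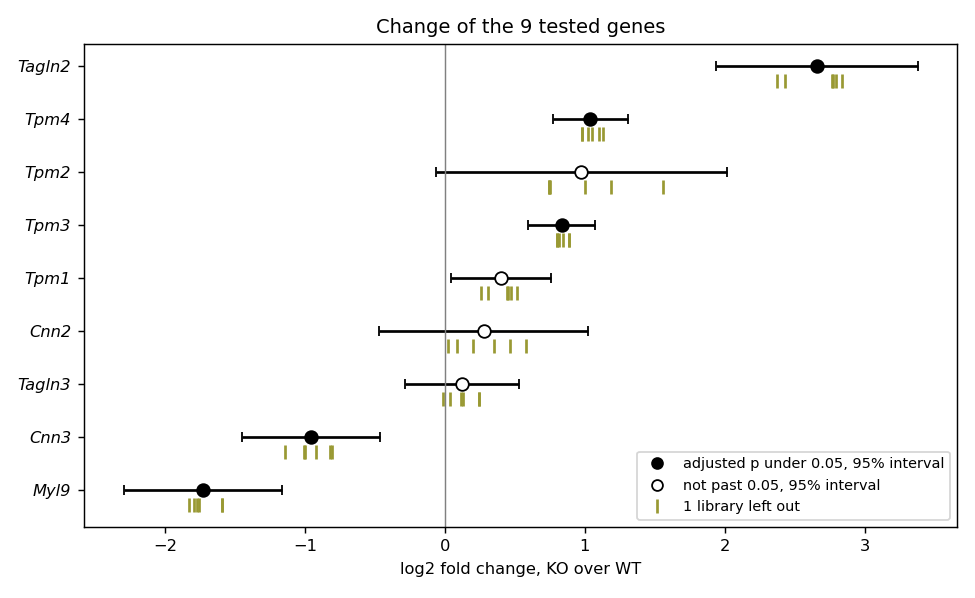
Log2 fold change of KO over WT (horizontal axis) of the 9 tested genes with its 95% interval, filled where the adjusted p was under 0.05 and open where it was not, and with the 6 values from leaving out 1 library each as ticks below. Tagln2 is at 2.66 and Myl9 at -1.73, and the ticks of Tpm2 reach from 0.74 to 1.56.

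Ordered by mean FPKM in WT, the genes ran Cnn3 (161 ± 34.8), Tagln3 (60.2 ± 12.3), Tpm4 (35.6 ± 4.04), Tpm3 (26.2 ± 1.47), Tpm1 (15.1 ± 1.98), Tagln2 (9.73 ± 2.66), Myl9 (8.57 ± 1.24), Cnn2 (5.05 ± 1.89), Tpm2 (1.52 ± 0.935) and Tagln (0.134 ± 0.017; SD, n = 3 each). Tagln2 and Myl9 were neighbours whose libraries overlapped. In KO the same 2 genes stood far apart, Tagln2 at 64.4 ± 20 and Myl9 at 2.69 ± 0.332 (SD, n = 3 each). The KO libraries of Cnn3 (86.8 ± 10.8), Tpm4 (75.9 ± 6.18), Tagln3 (68.1 ± 10.5) and Tagln2 overlapped with their neighbours in the order, so these 4 were not separated by level. Cnn3 exceeded Tagln2 by 15.2 to 18.5 times in the WT libraries and by 1.06 to 1.71 times in the KO libraries. By mean FPKM Tagln2 moved from the 65.7th to the 95.5th percentile of the tested genes.

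The tested protein-coding genes with the most similar course over the 6 libraries were found by the root mean square difference of log2 CPM after removing each gene's mean. For Tpm4 these were Gars, the glycyl-tRNA synthetase (difference 0.022, where Tpm4 itself varied by 0.53), and Nxt1 (0.043), and for Tpm3 Cep295 (0.038) and Ipo7 (0.049). Cnn3 was followed most closely by Ranbp9 (0.046) and Zfp37 (0.084), and Myl9 by Serinc5 (0.063) and Ampd3 (0.088). For Tpm1, which varied by 0.26, they were Sec11c (0.051) and Bbs7 (0.053). For Tpm2, which varied by 0.73, they were Cnnm4 (0.13) and Bex1 (0.16). Tagln3 varied by 0.21 and had Zfp141 (0.080) and Armc10 (0.081). Cnn2 varied by 0.39 and had Crocc (0.079) and Uevld (0.14). The closest to Tagln2 were the formin gene Diaph3 at 0.30 and Shmt1 at 0.32, where Tagln2 itself varied by 1.38. A gene that varies more can differ more, so these distances do not set Tagln2 apart. The measure compares 6 libraries in 2 groups and is a description of these libraries.

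Among genes known from smooth muscle, Myh11, Actg2, Tagln and Cnn1 stayed under 1 CPM in every library, but Mylk and Des did not. A list of 12 smooth muscle contractile genes, which holds Myh11 and Actg2 but neither Tagln nor Cnn1 nor Myl9, had 9 tested genes, of which 2 rose, 3 fell and 4 did not pass. Acta2, 1 of the 2 that rose, cleared the filter on low counts only through KO, so its call is not read as a result. Over the 9 tested genes, 5 log2 fold changes were positive and 4 negative. Myocd, the cardiac and smooth muscle cofactor of SRF, had 0 reads in every library, and Actg2 and Des were below the filter. Des had 1, 3 and 2 reads in WT and 5, 20 and 23 in KO. Mylk stood at 0.673, 0.703 and 0.426 CPM in WT and 5.71, 2.54 and 0.662 CPM in KO. The groups of Mylk overlapped, and it did not pass (log2 fold change 2.29, adjusted p = 0.0582, edgeR). Acta2, which encodes a smooth muscle actin, had 2 reads in each WT library and 23, 13 and 24 reads in KO, at most 1.33 CPM. Smoothelin (Smtn), which binds actin in contractile smooth muscle, rose from 6.55 ± 3.29 to 27.7 ± 1.47 CPM (SD, n = 3 each; log2 fold change 2.08, SE 0.35). Leiomodin 1 (Lmod1), an actin nucleator of smooth muscle, and Synpo2 fell, at -2.47 (SE 0.32) and -2.72 (SE 0.39), in the direction of Myl9. The 12 genes summed to 212 to 252 CPM in WT and 191 to 219 CPM in KO. Of 12 mural cell markers, which label pericytes and vascular smooth muscle, 9 were tested. Of these, 8 had a positive and 1 a negative log2 fold change, with a median of 0.83, and the list summed to 200 to 281 CPM in WT and 180 to 296 CPM in KO. Notch3 (123 CPM on average in WT and 63.7 CPM in KO) fell, and Anpep was called higher but cleared the filter only through KO, with 5, 2 and 3 reads in WT and 89, 12 and 13 in KO. Neither call held without WT 6, WT 7 or KO 1, and that of Notch3 also ended without KO 2. Of 14 meningeal and fibroblast markers 11 were tested, 10 with a positive and 1 with a negative log2 fold change and a median of 2.42. The 2 called higher, Lum and Slc6a13, cleared the filter only through KO, and 1 fell, a call that ended without WT 6, WT 7, KO 1 or KO 2. Without KO 1, the library high in these markers, Tagln2, Tpm4, Tpm3 and Myl9 passed at 2.84, 1.13, 0.84 and -1.60, and Cnn3 stood at -0.82 and did not pass (adjusted p = 0.0577, edgeR). The part of mural, meningeal or fibroblast cells in the changes of the 10 genes was not tested.

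Both cytoplasmic actin genes, whose products form the filaments that these proteins bind, missed the threshold: Actb (1567 ± 62.6 and 1580 ± 150 CPM) and Actg1 (1124 ± 34.3 and 1346 ± 56.3 CPM, WT and KO, SD, n = 3 each) (adjusted p = 0.954 and 0.156, edgeR), with 95% intervals of 0.798 to 1.27 and 0.975 to 1.47 for their folds. Of 17 genes of non-muscle myosin II and its regulators 4 rose and 2 fell. The heavy chains Myh9 at 0.78 (SE 0.13) and Myh10 at 0.59 (SE 0.13) were among those that rose, next to Myl12a. Another heavy chain gene, Myh14, fell at -1.37 (SE 0.38), from 31.1 ± 10.1 to 12.1 ± 4.9 CPM (SD, n = 3 each). The kinase Limk2 fell at -0.44 (SE 0.10). The calls of Myh10 and Limk2 ended without WT 6 or WT 7, and that of Limk2 also without KO 2, and no gene of this list fell without any of these 3.

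Of the 18 filament end and turnover proteins 2 rose and 3 fell. Tropomodulins, which cap the filament end by binding tropomyosin, did not pass, with Tmod3 at 60.6 ± 7.9 and 64.6 ± 8.23 CPM and Tmod2 at 194 ± 18.3 and 235 ± 55.5 CPM in WT and KO (SD, n = 3 each), and Tmod1 and Tmod4 under 2 CPM on average. The severing protein gelsolin (Gsn) fell by 1.80 (SE 0.13) on the log2 scale and the neuronal profilin Pfn2 by 0.68 (SE 0.12). Thymosin beta 4 (Tmsb4x) fell by 0.64 (SE 0.18), from 1733 ± 380 to 1110 ± 27.3 CPM (SD, n = 3 each). Only Gsn and Pfn2 fell in the fits without WT 6, KO 1, KO 2 or KO 3. Profilin 1 (Pfn1, 0.60, SE 0.13) and thymosin beta 10 (Tmsb10, 1.15, SE 0.29) rose, but the call of Pfn1 ended without WT 6, WT 7 or KO 2, and that of Tmsb10 without any 1 of 4 libraries, WT 6, WT 7, KO 2 and KO 3.

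Of 22 crosslinkers and stress fibre adaptors 4 rose and 4 fell. Lima1 (-1.61, SE 0.21) and palladin (Palld, -1.25, SE 0.16), both of which bind and bundle filaments, fell whichever library was left out. Csrp1 (-1.72, SE 0.36), a LIM protein of smooth muscle, fell and zyxin (Zyx, 0.58, SE 0.13), a focal adhesion protein, rose, both calls ending without WT 6, KO 1 or KO 2. Without WT 6 or KO 2 no gene of this list rose, and 2 fell. Among SRF and 7 cofactors, Fhl1 fell (-0.83, SE 0.13) and none rose, though 2 rose without WT 3. SRF itself stood at 35.2 ± 6.83 and 50.1 ± 3.95 CPM in WT and KO (SD, n = 3 each), short of the threshold (adjusted p = 0.0531, edgeR), nor did Mkl1 (adjusted p = 0.117, edgeR), the SRF cofactor that senses free actin, or Elk3 (adjusted p = 0.0939, edgeR). Over all genes of these 6 lists that passed, adjusted p ran from 0.000851 to 0.0440 (edgeR, Benjamini-Hochberg).

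**Figure D4:**
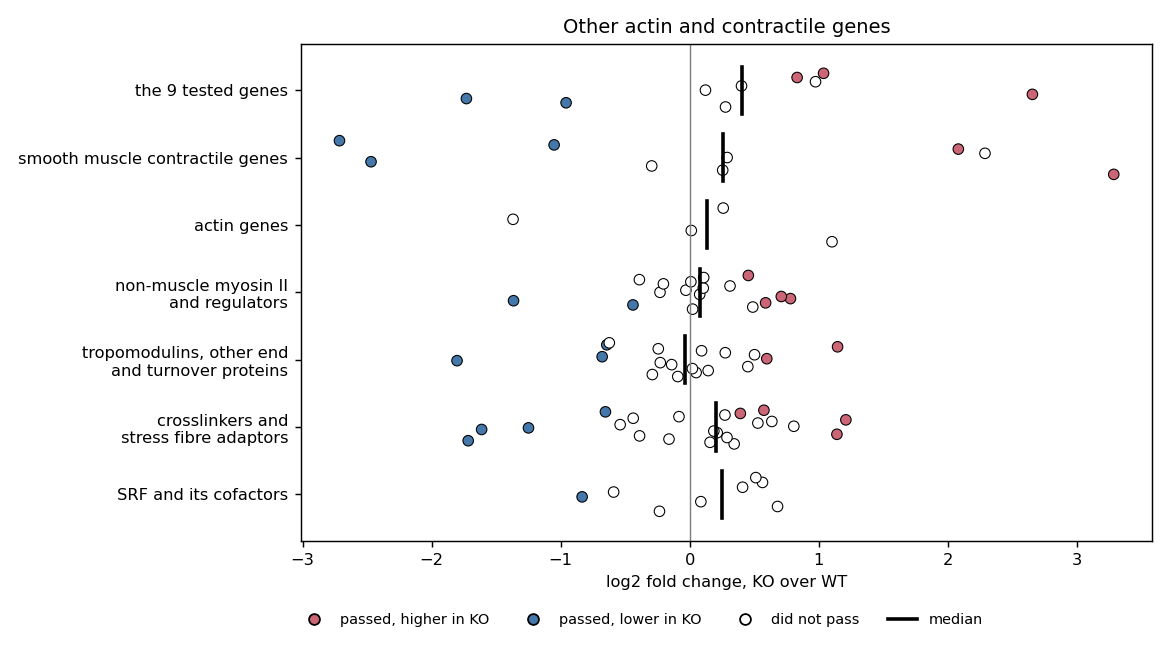
Log2 fold change of KO over WT (horizontal axis) of the 9 tested genes and of the tested genes of the 6 other lists, 1 point per gene, red where higher and blue where lower at an adjusted p under 0.05, and white where not, with the median of each list as a bar. Each list holds points on both sides of 0, and its median lies between -0.04 and 0.40.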

How the data were processed

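Messenger RNA of 6 neurosphere libraries was compared, 3 WT and 3 KO, grouped and numbered by their titles. The deposited table gave raw read counts per gene, not normalised by the authors per the file headers and the differing column sums, and FPKM per gene. Deposited FPKM, scaled by gene length and an estimated total, matched the deposited count to 0.05 reads everywhere except at 4 of 327192 entries, 0 of them in the 10 genes. Per the submitters' processing notes, the build was mm10 and the tools included DESeq2 1.16.1, featureCounts 1.5.0-p3 and HISAT2 2.0.5. The sources used here do not state settings, annotation or use of strand. Spans in the table equalled those of GENCODE M21 for the 10 genes.

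Counts were analysed with edgeR 4.0.16 in R 4.3.3 (TMM, filterByExpr defaults, quasi-likelihood F test, two-sided, no covariates, Benjamini-Hochberg over 16606 genes). SE is the absolute log2 fold change divided by the square root of F. The scripts were tested on simulated data. Total counts were 16764480 to 21983659, where 3 reads are 0.142 to 0.173 CPM. The 95% intervals are the log2 fold change plus or minus a t quantile times SE. They are for the difference between the groups and rest only on variation between libraries.

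The genes, lists and rules were chosen with earlier results of these data known. Named beside the 10 genes were Cnn1, Ash2l, the tropomodulins, up to 4 tested genes of lowest p from each of 7 pathway lists, and for each gene the 2 protein-coding genes of at least 10 CPM with the most similar course. Myh11, Actg2, Des, Mylk, Myocd, Myl12b, Myh14 and Tmsb4x fall outside this rule and were named after their values were seen, as were single cell type markers. Alternatives were RLE factors, library totals, no filter, a filter of 1 CPM in 3 libraries, DESeq2 1.42.0, limma-voom (limma 3.58.1) with quality weights, limma fits of log2 FPKM with a pseudocount of 1 or 0.1 over genes of mean FPKM at least 0.5, the former also unfiltered, a test against a 1.5-fold change, each library left out, and Tpm3 summed with its retrocopies, chosen after seeing the data. Motifs were searched in RefSeq windows. The 8 lists of cell type markers hold mural, meningeal, endothelial, microglial, neuronal, astrocyte, oligodendrocyte and progenitor genes. Of the lists not described in the report, 1 endothelial marker rose, having cleared the filter only through KO, and 1 fell of 4 tested, and 0 of 7 microglial markers passed by edgeR's quasi-likelihood test (0 at an unadjusted p under 0.05).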

Additional observations from a re-analysis of the deposited data

How the results depend on the processing

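The 5 calls among the 9 tested genes were kept with RLE factors, library totals, both other filters, DESeq2 and all 3 FPKM fits. Scaling by library totals moved the median log2 fold change of all genes from 0.00 to 0.06 and turned no sign among the 9. With limma-voom and quality weights 5 of them were called higher, as Tpm1 and Tpm2 were added, and 8052 genes passed in all. Against a 1.5-fold change 3 passed, 1 of them lower, and 1522 in all. Leaving out 1 library each gave 4 to 6 calls, with 3 or 4 higher and 1 or 2 lower, and 2178 to 6641 calls over all genes, against 4812 with all libraries. The fall of Cnn3 was the call that ended in such fits, and the rise of Tpm2 without WT 3 the one gained. Tagln2, Tpm4 and Myl9 passed in all 17 alternatives. Tagln3 changed sign in 1, and ranged from -0.011 without WT 7 to 0.25 without WT 3 over the fits that left out 1 library. As shares of raw counts, with no correction for length, Tpm1 held 28.7% in WT and 22.1% in KO, Tpm3 47% and 48.9%, and Tpm4 23% and 27.6%. Tpm3 then leads in place of Tpm4, since its annotated exons are longer. No paired analysis was possible because the groups share only the number 3. At these depths Tagln and Cnn1 were near the limit of detection.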
